A study of Mus musculus with 12 samples.

Results

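Mouse embryonic fibroblasts that lacked the transcription factor ATF4 were compared with wild-type fibroblasts after 24 h of tunicamycin, by miRNA arrays. The comparison held 4 of the series' 12 arrays, chosen by their titles: 2 of wild-type cells (WT) and 2 of ATF4 knockout cells (KO), each pair of WT and KO arrays sharing a replicate number, a slide and a scan batch. All 611 mouse miRNA names on the array were read, and 120 were tested, those with a signal well above background on each array of 1 or more tunicamycin groups. Both genotypes were embryonic fibroblasts of the C57BL/6 background, labelled ATF4WT and ATF4KO, given tunicamycin at 2 µg/mL. The same medium, with serum, 2-mercaptoethanol and non-essential amino acids, served every group, and the other arrays of the series were 2 of each genotype at 12 h of tunicamycin and 2 of each without it. The labels do not say how the knockout was made, whether the cells were immortalised or whether replicates came from separate embryos or cultures, so a p-value here covers only how much these arrays vary, which may be technical.

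Tunicamycin blocks N-linked glycosylation, so unfolded glycoproteins build up in the endoplasmic reticulum. The kinase PERK then slows translation in general while the ATF4 message is translated better, and ATF4 switches on genes of amino acid supply, redox balance and, with CHOP, cell death. miRNAs are short RNAs that guide Argonaute to messages mainly through the seed, bases 2 to 8 of the mature strand, and lower the output of those messages.

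The mature sequences of the miRNAs the comparison turns on are given because several share a seed. They come from RefSeq (GRCm38.p6), run 5′ to 3′, and carry the seed in capitals; 15 of the 17 names looked up were matched. The first 3 lines are miRNAs that were lower in KO cells and passed the test, and the next line is a miRNA that was higher and passed it.

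miR-210 (miR-210-3p): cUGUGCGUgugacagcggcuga
miR-7a (miR-7a-5p): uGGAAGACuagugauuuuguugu
miR-155 (miR-155-5p): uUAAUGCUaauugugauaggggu
miR-26a (miR-26a-5p): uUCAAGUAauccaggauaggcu
miR-26b (miR-26b-5p): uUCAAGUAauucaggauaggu
miR-34a (miR-34a-5p): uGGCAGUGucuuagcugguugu
miR-34b-5p: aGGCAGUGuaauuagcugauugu
miR-221 (miR-221-3p): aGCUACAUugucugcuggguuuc
miR-222 (miR-222-3p): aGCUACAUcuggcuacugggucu
miR-199a-5p: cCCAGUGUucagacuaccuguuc
miR-214 (miR-214-3p): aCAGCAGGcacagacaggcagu
miR-125b-5p: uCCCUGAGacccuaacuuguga

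miR-34a and miR-34b-5p share the seed GGCAGUG, miR-26a and miR-26b share UCAAGUA, and miR-221 and miR-222 share GCUACAU.

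The 4 arrays were not equal in signal. WT arrays had 105 and 133 mouse miRNAs well above background in replicates 1 and 2, and KO arrays had 92 and 164, so KO replicate 1 was the lowest and KO replicate 2 the highest. The pooled SD of a replicate was 0.54 on the log2 scale in WT and 0.99 in KO. The header's labelling spike-in value was out of the scanner software's range on all 4 arrays. WT arrays lay in slide row 1 and KO arrays in row 2, so genotype and slide row cannot be told apart. Of 12 fibroblast marker miRNAs, 9 or 10 were well above background on each array, with miR-145 and miR-152 at the floor on all 4. None of the 7 epithelial, 9 blood and endothelial, 7 neural or 15 pluripotent markers was well above background on any of the 4 arrays, and 1 of 7 muscle markers was, on KO replicate 2. The arrays measure no mRNA, so the loss of Atf4 was not checked here.

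After 24 h of tunicamycin, 5 miRNAs differed between the genotypes: miR-210, miR-7a and miR-155 were lower in KO cells, and miR-34c and miR-26a were higher. These 5 were 4.17% of the 120 tested, with 1.67% called higher and 2.5% called lower (limma with Benjamini-Hochberg adjustment, threshold 0.05). The median difference over all 120 was -0.06, close to 0. Levels below are log2 of the summed probe signal divided by the array's 75th percentile, with a floor of -4.96, and differences are KO minus WT on that scale. A level cannot be compared between miRNAs, since each has its own probes. The SE of a 24 h difference comes from limma's fit of all 8 tunicamycin arrays, not from the 24 h arrays alone. The n beside it counts the 24 h arrays per genotype.

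miR-210, the miRNA that hypoxia induces through HIF in most cells, stood at -2.72 and -2.66 in WT replicates 1 and 2 and at -4.60 and -4.89 in KO. The groups were far apart and the KO arrays lay close to the floor. The difference was -2.05 ± 0.21 (SE, n = 2 per genotype), with an adjusted p of 0.0106 in limma's test. On KO replicate 1 the signal was not well above background, and with the floor times 2 the difference was -1.27 (limma adjusted p 0.0329).

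miR-7a, known best from endocrine and nervous tissue, stood at -2.27 and -2.99 in WT and at -4.69 and -4.96 in KO. Neither KO array was well above background, and both WT arrays were. Both KO arrays of 12 h were at the floor, so miR-7a entered the test through WT arrays. That favours a lower level in KO. Arrays at the floor show no spread, so the SE and p-value below may be too small. The level was at least 3.86-fold lower in KO, measured from the WT mean to the lowest signal well above background on each KO array, and the fitted difference was -2.20 ± 0.24 (SE, n = 2) with a limma adjusted p of 0.0106. With the floor times 2 it was -1.33 and the adjusted p 0.056, and with the floor divided by 2 the adjusted p was 0.0562.

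miR-155, made from the Bic transcript and best known from activated immune cells, stood at -2.48 and -2.05 in WT and at -4.62 and -3.96 in KO. Both KO arrays were below both WT arrays, and KO replicate 1 was not well above background. The difference was -2.03 ± 0.33 (SE, n = 2), with an adjusted p of 0.0438 in limma's test. Its direction rests on the measure: with the scanner software's own total per miRNA, the difference was 0.83, and with the deposited value table it was 0.89. On KO replicates 1 and 2 that total was 45.9 and 149.6, whereas the same file's probe totals for miR-155 sum to 5.47 and 24.4, and on both WT arrays both figures were equal.

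miR-34c, of the miR-34 family that p53 switches on, was at the floor of -4.96 on both WT arrays and at -2.89 and -2.19 in KO, with no overlap. It was well above background on both KO arrays and on neither WT array. The level was at least 4.04-fold higher in KO, and the fitted difference was 2.42 ± 0.26 (SE, n = 2), adjusted p 0.0106 in limma's test. With the floor divided by 2 it was 3.14, and with the floor times 2 it was 1.42 and no longer passed the test (adjusted p 0.056). Every WT array of 12 h and 24 h was at the floor and showed no spread, whereas the SD of the KO arrays of 24 h was 0.49. The SE and p-value of miR-34c may therefore be too small.

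miR-26a, a miRNA of differentiated cells that represses the histone methyltransferase Ezh2, stood at -2.40 and -2.53 in WT and at -1.17 and -1.56 in KO. It was well above background on all 4 arrays, so no bound is involved. The difference was 1.097 ± 0.18 (SE, n = 2), a 2.14-fold higher level in KO, with a limma adjusted p of 0.0438. The call did not hold in most alternatives, and passed in 6 of 20: without the replicate block the adjusted p was 0.0608, and with the 75th percentile over all mouse miRNAs the difference was 0.60 with an adjusted p of 0.567.

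**Figure D1:**
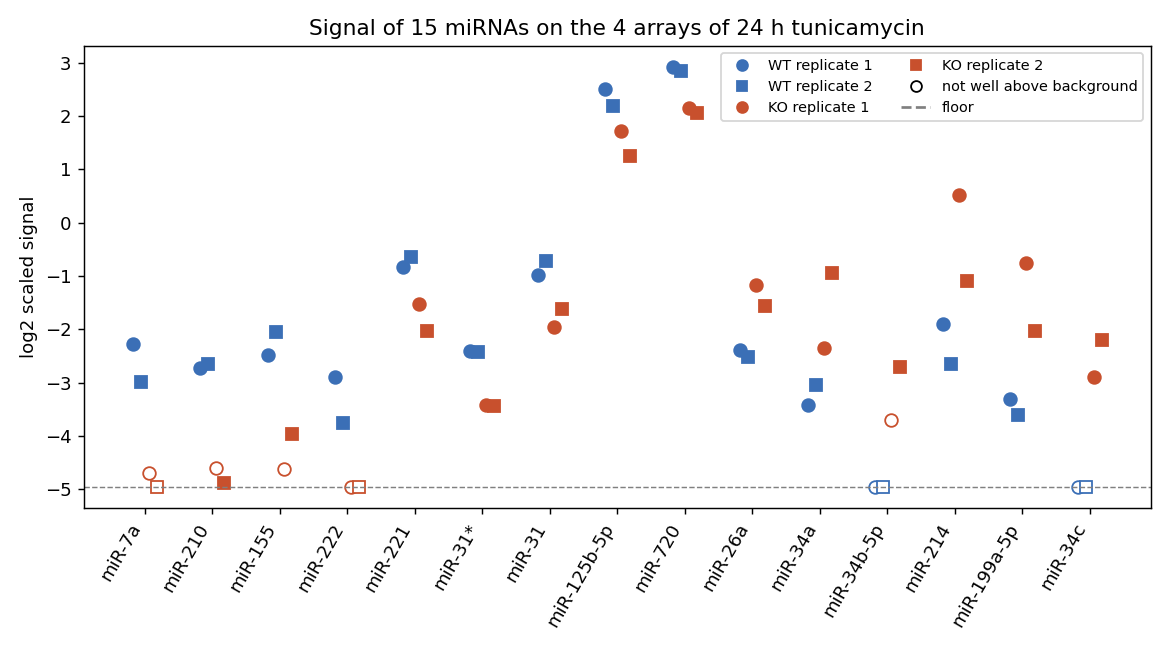
Log2 scaled signal (vertical axis) of the 15 miRNAs with the smallest p-values on the 4 arrays of 24 h tunicamycin, WT in blue and KO in red, circles for replicate 1 and squares for replicate 2, open symbols not well above background; the dashed line is the floor of -4.96. Within each miRNA the 2 WT arrays and the 2 KO arrays do not overlap; heights are not comparable between miRNAs.

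The test used both pairs of arrays, so its calls tend to have one sign in both, as 26.7% (higher) and 37.5% (lower) of all miRNAs tested did. miR-210 gave -1.87 in the replicate 1 pair and -2.23 in the replicate 2 pair, miR-7a -2.42 and -1.97, and miR-155 -2.15 and -1.91. miR-34c gave 2.07 and 2.76, and miR-26a gave 1.22 and 0.97. Over all 120 miRNAs the differences of the 2 pairs correlated at 0.62, across miRNAs, which are not independent replicates, and within arrays that share a slide. The 2 arrays of a genotype did not overlap with the other genotype's for 25 miRNAs higher in KO (20.8% of those tested) and 27 lower (22.5%), while 5 passed the test. With 2 arrays per genotype, non-overlap often arises without a genotype effect, so by itself it shows little. Of the alternatives that could be fitted, other than left-out arrays, miR-210 passed in 10 of 19, miR-34c in 9 of 18, and miR-7a and miR-155 in 8 of 19 each. These counts, and that of miR-26a, include scaling over the miRNAs above background on the 8 tunicamycin arrays. That setting returned the main values unchanged, so its pass is no separate check. The count of 5 rested on single arrays: it was 0 without WT replicate 1, 0 without WT replicate 2, 2 without KO replicate 1 and 8 without KO replicate 2, and also 0 without either KO array of 12 h, which share the spread estimate. It was 0 when the 4 arrays of 24 h were fitted alone (25 of 108 had an unadjusted p under 0.05). With normexp background correction none of the 5 passed, and their differences were -0.78 for miR-210, -0.85 for miR-7a, -0.83 for miR-155, -0.13 for miR-34c and 0.038 for miR-26a. That setting added an offset of 50 to every spot, which draws differences of dim miRNAs toward 0. The part owed to background correction itself cannot be told apart from the offset. A second normexp setting, chosen after seeing the data, kept that offset and left out spots of outlying local background. There the differences were -0.43 for miR-210, -0.44 for miR-7a, -0.53 for miR-155, 0.51 for miR-34c and 0.44 for miR-26a, and none passed. The normexp values thus also moved with those spots.

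**Figure D2:**
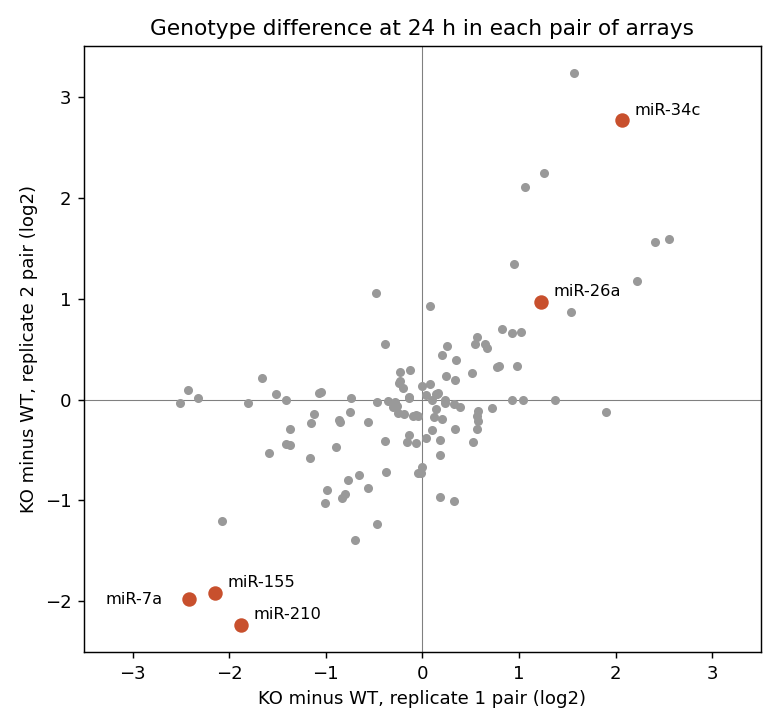
Difference KO minus WT (log2) in the replicate 1 pair of arrays (horizontal axis) against the replicate 2 pair (vertical axis) for the 120 miRNAs tested; the 5 that passed the test are red and named. For each of the 5, both pairs lie on the same side of 0, below it for miR-210, miR-7a and miR-155 and above it for miR-34c and miR-26a.

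The 10 miRNAs with the next smallest p-values missed the threshold, and their values follow by family. miR-34b-5p, made with miR-34c from 1 transcript on chromosome 9 (Mir34b at chr9:51103562-51103645 and Mir34c at chr9:51103034-51103110, both on the minus strand), was at -4.96 and -4.96 in WT and at -3.70 and -2.71 in KO. Neither WT array was well above background, and of the KO arrays only replicate 2 was. The level was at least 2.55-fold higher in KO, and the fitted difference, which depends on the floor, was 1.75 with a limma adjusted p of 0.05, just over the threshold. miR-34a, another p53-induced member, from its own gene on chromosome 4, was at -3.42 and -3.05 in WT and -2.35 and -0.95 in KO, a difference of 1.59 ± 0.46 (SE, n = 2) with an adjusted p of 0.147 in limma's test. Without KO replicate 2 the difference of miR-34a was 0.89. The 3 miR-34 strands tested had higher levels in KO in both pairs, as did 26.7% of all miRNAs tested. The p53-linked list had 6 members tested with a median difference of 1.07, against -0.06 over all miRNAs, and 1 of 6 was called, beside 4.17% of all. The other 3 members differed by 0.55 (miR-143), 0.05 (miR-107) and -0.71 (miR-194). Every WT array of 12 h and 24 h gave the floor value for miR-34c, and likewise for miR-34b-5p. Both strands thus entered the test only through KO arrays, which favours a higher level in KO. The count of miR-34 strands higher in both pairs and the p53-linked median therefore partly reflect the filter. Arrays at the floor show no spread, so the p-values of miR-34c and miR-34b-5p may also be too small.

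miR-222 and miR-221, neighbours on the X chromosome (chrX:19146893-19146971 and chrX:19146294-19146388, minus strand) that repress the cell cycle inhibitor p27, were both lower in KO. miR-222 was at -2.89 and -3.76 in WT and at the floor on both KO arrays, at least 2.39-fold lower, with a fitted difference of -1.63 and a limma adjusted p of 0.0538. Both KO arrays of 12 h were at the floor too, so miR-222 entered the test through WT arrays. That favours a lower level in KO. Arrays at the floor show no spread, so the p-value of miR-222 may be too small. miR-221 was at -0.83 and -0.64 in WT and -1.53 and -2.02 in KO, a difference of -1.04 with a limma adjusted p of 0.122.

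miR-31 and miR-31* are the opposite arms of 1 hairpin, and both were lower in KO by about the same amount. miR-31 was at -0.97 and -0.72 in WT and -1.96 and -1.62 in KO, a difference of -0.95 ± 0.23 (SE, n = 2). miR-31* was at -2.41 and -2.42 in WT and -3.41 and -3.44 in KO, a difference of -1.01 ± 0.24 (SE, n = 2). Both had an adjusted p of 0.0934 in limma's test. The hairpin, at chr4:88910557-88910662 on the minus strand, is shown with its arms in capitals, miR-31 to the left and miR-31* to the right.

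Mir31 hairpin: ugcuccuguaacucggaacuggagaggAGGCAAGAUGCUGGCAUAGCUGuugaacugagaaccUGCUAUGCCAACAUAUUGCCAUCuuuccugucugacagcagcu

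miR-199a-5p and miR-214, known from mesenchymal cells, had higher levels in KO on both arrays and did not pass the test. miR-214 is made from the Dnm3os transcript on chromosome 1, and the same mature miR-199a-5p comes from that transcript and from Mir199a-1 on chromosome 9, which the array cannot tell apart. miR-199a-5p was at -3.31 and -3.61 in WT and -0.75 and -2.03 in KO, a difference of 2.07 ± 0.40 (SE, n = 2) with a limma adjusted p of 0.0538. miR-214 was at -1.90 and -2.66 in WT and 0.51 and -1.10 in KO, a difference of 1.98 ± 0.48 (SE, n = 2) with a limma adjusted p of 0.0934. The 2 KO arrays differed from each other by more than the WT arrays did for both miRNAs, with SDs of 0.90 and 1.14 in KO against 0.22 and 0.54 in WT. Fibroblast markers were split: 6 of 10 tested were higher in KO in both pairs and 4 lower in both, where 26.7% of all miRNAs tested were higher and 37.5% lower in both pairs. The summed level of the list was 36.7 and 30.7 on the WT arrays and 40.2 and 29.4 on the KO arrays.

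miR-125b-5p, an abundant fibroblast miRNA that is known to repress p53, was at 2.52 and 2.19 in WT and 1.72 and 1.26 in KO, a difference of -0.87 ± 0.18 (SE, n = 2) with a limma adjusted p of 0.0644. miR-720, whose name is linked to a tRNA fragment, was at 2.92 and 2.85 in WT and 2.16 and 2.05 in KO, a difference of -0.78 with a limma adjusted p of 0.147.

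The lists of families and processes were read by their counts and medians beside those of all miRNAs tested. Of 9 tested members of miR-17-92 and its paralogs, which drive proliferation, 7 were lower in KO in both pairs and none was higher in both, with a median of -0.63 and none called, beside 37.5% lower and 26.7% higher in both pairs over all miRNAs tested. The shift was larger in the replicate 1 pair, with a median of -1.12, than in the replicate 2 pair, with -0.23. miR-19b was at 0.22 and 0.71 in WT and -0.89 and 0.57 in KO (difference -0.63), miR-92a at -0.13 and 0.21 in WT and -0.98 and -0.02 in KO (-0.54), and miR-20a at -0.54 and 0.01 in WT and -1.69 and -0.23 in KO (-0.70). In each of these KO replicate 2 lay between the WT arrays and KO replicate 1 lay below them, and without KO replicate 1 the difference of miR-19b was 0.0195. miR-18a (-0.91) and miR-19a (-0.93), added after their values were seen, did not overlap between the genotypes.

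The 3 miR-29 members, which repress collagen genes, had lower levels in KO in both pairs, as did 37.5% of all miRNAs tested, with differences of -0.44 for miR-29a, -0.53 for miR-29b and -0.87 for miR-29c, and none was called. Without KO replicate 1 the difference of miR-29a was 0.027, and with the deposited table that of miR-29c was 0.32. The let-7 family, which marks differentiated cells, had 9 members tested and a median of -0.06. let-7b was at 0.63 and 0.72 in WT and 1.17 and 1.27 in KO, a difference of 0.54 with an adjusted p of 0.147 in limma's test, whereas let-7a (-0.11) and let-7f (-0.17) overlapped between the genotypes, and without KO replicate 2 they were 0.19 and 0.0202. miR-26b, with the seed of miR-26a, differed by 0.14 ± 0.19 (SE, n = 2), and by -0.36 with the 75th percentile over all mouse miRNAs.

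Of 4 miRNAs tested that share the miR-16 seed family or the miR-322 cluster, miR-322 was at -3.005 and -3.80 in WT and -2.06 and -2.46 in KO, a difference of 1.14 with a limma adjusted p of 0.147, and it was -0.27 with normexp. miR-15b (-0.37), miR-15a (-0.18) and miR-16 (-0.25) did not pass; the arrays of miR-15a and miR-15b overlapped between the genotypes, and without KO replicate 2 their differences were 0.13 and 0.037. miR-23a and miR-27a, which are made from 1 transcript, differed by 0.33 and 0.60, and miR-23a by -0.17 with the 75th percentile over all mouse miRNAs. miR-24, which the array does not assign to a single hairpin, differed by -0.13. miR-196a and miR-196b lie in the Hox clusters. miR-196a was well above background on both KO arrays and on neither WT array, at least 3.17-fold higher in KO, with a fitted difference of 1.70 and a limma adjusted p of 0.147. miR-196b was at -2.87 and -3.09 in WT and -2.04 and -2.39 in KO, a difference of 0.76 with a limma adjusted p of 0.147. With normexp they were -0.56 and -0.26.

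The list of miRNAs with known ties to the unfolded protein response had 17 members tested of 33 on the array. Of them 8 were higher in KO in both pairs and 7 lower in both, with a median of 0.16, beside 26.7% and 37.5% of all miRNAs tested and a median of -0.06. Of the 17, 1 was called, miR-7a, beside 4.17% of all. miR-7a entered the test through WT arrays, so that count partly reflects the filter. The miR-30 list (median 0.19, 4 tested) and the list of miR-99, miR-100 and miR-125 (median -0.36, 5 tested) had no call. With the 75th percentile over all mouse miRNAs, the differences of miR-30a, miR-30c, miR-30d and miR-30e were -0.38, -0.23, -0.11 and -0.49. miR-100 differed by -0.85 and did not pass, but with the software's total per miRNA it was the one call, in the other direction, at 4.004 (limma adjusted p 0.0234), and with the deposited table at 4.06 (limma adjusted p 0.0054). On KO replicates 1 and 2 its total was 326.9 and 459.8 where its probe totals summed to 10.99 and 16.8, and on the WT arrays both figures were equal.

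The miR-466 group, copies of a repeat inside an intron of Sfmbt2, had 14 of 39 members tested, a median of -0.21 and no call. Their arrays were far apart by replicate: miR-466f-3p was at -2.53 and 0.18 in WT and at -4.96 and 0.27 in KO, and miR-466g at -2.63 and 0.22 in WT and -4.96 and 0.24 in KO. The replicate 2 arrays of both genotypes were level, and the replicate 1 arrays were low. Without WT replicate 1 the differences were 0.46 for miR-466f-3p and 0.40 for miR-466g. The group's median difference was -0.33 in the replicate 1 pair and -0.00178 in the replicate 2 pair. Of 115 star strands, the less abundant arms of their hairpins, 8 were tested, with a median of -0.24 and no call.

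**Figure D3:**
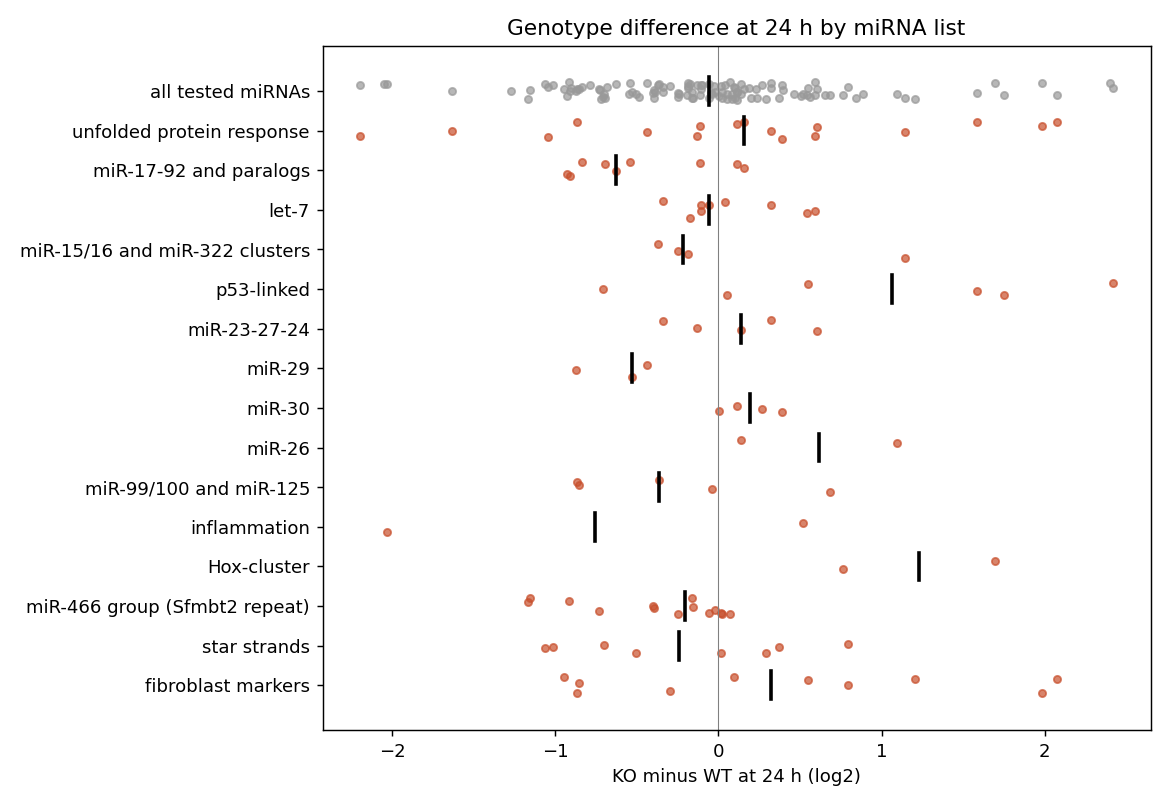
Difference KO minus WT at 24 h (log2, horizontal axis) for the members tested of each list (red points) and for all 120 miRNAs tested (grey); the black line is each list's median, and lists with 1 member tested are not drawn. The medians drawn run from -0.75 for the inflammation list of 2 to 1.23 for the Hox-cluster list of 2, beside -0.06 for all. miR-196a of the Hox-cluster list entered the test only through KO arrays, so that median partly reflects the filter. The p53-linked median does too, through miR-34c and miR-34b-5p. The inflammation median is of miR-155 (-2.03) and miR-146b (0.52). miR-146b was at the floor on every WT array of 12 h and 24 h, so it also entered only through KO arrays.

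At 12 h, the genotype difference of the 5 called miRNAs had the same sign: it was -1.29 for miR-210, -1.92 for miR-7a, -2.43 for miR-155, 1.72 for miR-34c and 1.39 for miR-26a. All 5 also passed at 12 h, with limma adjusted p of 0.0305 to 0.0344, in the same fit. There 11 of the 120 miRNAs were called, so the 5 are not particular to 24 h. The difference of the differences, 24 h minus 12 h, was called for 0 of 120 miRNAs (0%), and 0 also had an unadjusted p under 0.05. The intervals were wide, so a change cannot be read out: the 95% interval for miR-210 ran from -1.53 to 0.01, and for miR-34c from -0.24 to 1.64.

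Against untreated cells, the genotype difference at 24 h had shifted upward in 15 miRNAs (10.3% of 145 tested) and downward in 1 (0.69%), 11% in all (limma, adjusted over all tested). That balance rests on the scaling: with no scaling 3 shifted upward and 6 downward, and with the 75th percentile over all mouse miRNAs 0 were called (19 with an unadjusted p under 0.05). The untreated arrays lay on another slide, so slide and treatment cannot be told apart. They also spread less than the tunicamycin arrays and entered this fit's spread estimate. Its SEs and p-values may therefore be too small for the arrays of 24 h. For miR-26a the SE of the change was 0.14, below the 0.18 of its 24 h difference given above. The median of the difference of differences over all 145 was 0.34, and each change below includes that shift of the whole set. miR-34c went from -0.60 untreated to 2.42, a fitted change of 3.01 with an adjusted p of 0.0056 in limma's test. Its WT arrays of 24 h were at the floor, so the change depends on it: 3.74 with the floor divided by 2 and 2.01 with the floor times 2. In untreated cells it stood at -3.04 and -3.03 in WT and -3.60 and -3.66 in KO, so the WT arrays of 24 h were below their untreated level and the KO arrays above it. miR-34b-5p went from -0.90 to 1.75, a fitted change of 2.65, which was 3.41 with the floor divided by 2, and 1.18 with the floor times 2, where it no longer passed (limma adjusted p 0.141).

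miR-26a went from 0.12 to 1.097, a change of 0.97 ± 0.14 (SE) with a limma adjusted p of 0.0192. Untreated WT arrays stood at -1.22 and -1.34 and KO arrays at -1.20 and -1.12, so at 24 h the WT arrays were lower than untreated and the KO arrays were near their untreated level. miR-210 went from -3.71 to -2.05, a fitted change of 1.66 with a limma adjusted p of 0.0099. It was 1.44 with the floor times 2 and 1.77 with the floor divided by 2. Untreated WT arrays stood at -1.26 and -1.24 and both untreated KO arrays at the floor, so the size of the untreated difference is set by the floor, and the WT arrays of 24 h were below their untreated level. The difference of miR-7a was -2.19 untreated and -2.20 at 24 h, a change of -0.0021 with a 95% interval of -0.64 to 0.64, and that of miR-155 was -2.68 and -2.03, a change of 0.65 with an interval of -0.40 to 1.70. The untreated direction of miR-7a rests on the measure. The software's total was 1681 and 2027 in untreated KO replicates 1 and 2, and 75.8 and 77.1 in untreated WT. On those KO arrays the probe totals summed to 20.9 and 23.7, and on the WT arrays both figures were equal. Of the miRNAs with the smallest p-values at 24 h, miR-210, miR-7a and miR-155 also passed in untreated cells (limma adjusted p under 0.05). So did miR-222 (-2.20), miR-199a-5p (2.43), miR-214 (1.81), miR-125b-5p (-0.65), miR-31 (-0.86) and miR-720 (-0.60). miR-34c, miR-34b-5p, miR-34a, miR-26a, miR-31* and miR-221 did not. miR-29a (-1.19), miR-29b (-1.36), miR-29c (-1.08) and miR-196a (2.79) passed, and miR-196b (0.19) did not. miR-455 was at the floor on all 4 arrays of 24 h, so its change of -1.23 is its untreated difference of 1.23 with the sign turned. The same held for miR-195 (0.89) and miR-497 (1.07), singled out after their values were seen.

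**Figure D4:**
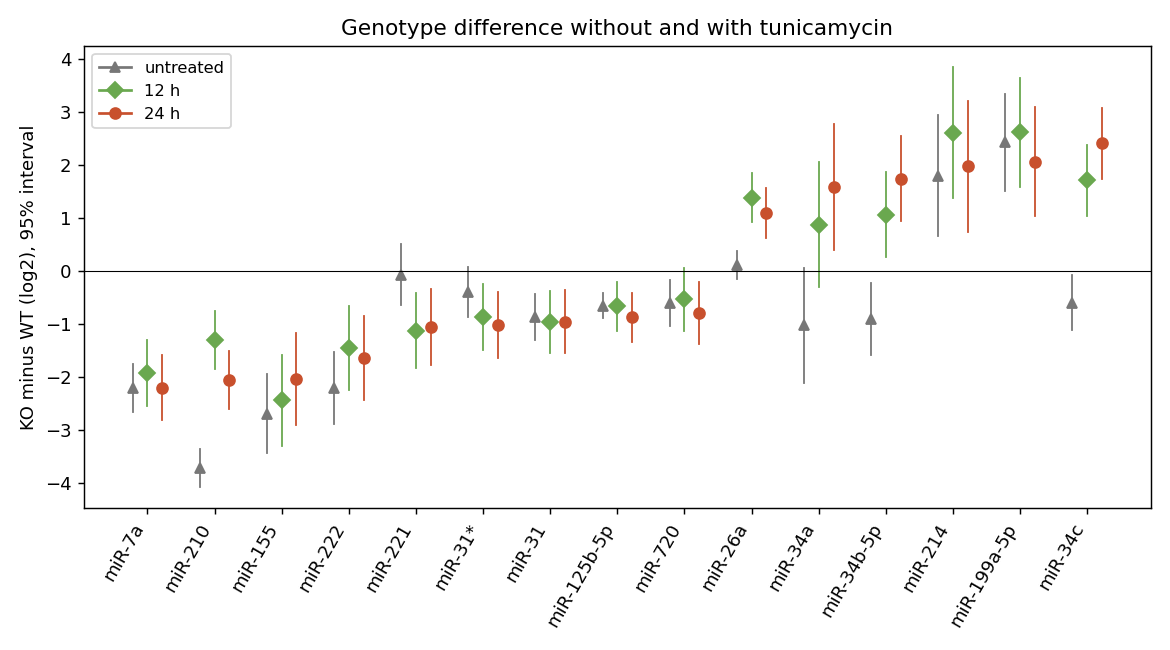
Genotype difference KO minus WT (log2, vertical axis) of the 15 miRNAs with the smallest p-values in untreated cells (grey triangles), at 12 h (green diamonds) and at 24 h (red circles), with 95% intervals from the limma fits; the untreated arrays lay on another slide. All but miR-34c, miR-34b-5p and miR-34a keep their side of 0 at all times, with miR-221 and miR-26a close to 0 untreated. miR-34c, miR-34b-5p and miR-34a are below 0 untreated and above 0 at 12 h and 24 h.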

How the data were processed

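The 12 Agilent 1-colour mouse miRNA arrays were scanned and quantified with Agilent Feature Extraction 10.7.1.1, per the submitters' processing notes. Spot intensities are as the authors deposited them (gProcessedSignal, background-subtracted, per the file headers), not scaled between arrays. The deposited value table is log2 of the software's total per miRNA, found by comparing both. Non-control, non-outlier spots were averaged by probe, summed over the probes of a miRNA, scaled to each array's 75th percentile, taken over 82 miRNAs well above background on all 12 arrays, floored and taken to log2. limma 3.58.1 (R 4.3.3) was fitted to the 8 tunicamycin arrays with replicate number as a block, and the difference from untreated cells to all 12 arrays; fits were tested on simulated data. Replicate deviations correlated at 0.72 to 0.96 between the 4 tunicamycin groups, and headers give each number its own scan batch, so numbers pair arrays. The files hold no gMeanSignal, so the normexp alternatives used gMedianSignal, with an offset of 50 added to every spot. Named miRNAs were the called ones, the smallest p-values up to 15, up to 4 of the brightest members of each list and up to 3 each way with the largest change among those called against untreated cells. Alternatives covered the block, arrays fitted, background correction, measure, scaling, floor, filter and left-out arrays. The members and lists were chosen with earlier results of these data known.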

Additional observations from a re-analysis of the deposited data

Results flagged for a closer look

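The genotype difference at 24 h differed from that in untreated cells by the test of the difference itself (limma, adjusted p under 0.05) for 8 of the miRNAs named. The change was 3.01 for miR-34c, 2.65 for miR-34b-5p, 2.20 for miR-146b, 1.66 for miR-210, 0.97 for miR-26a, 0.80 for miR-26b and 0.70 for let-7b, and -1.23 for miR-455. The median over all 145 was 0.34, and slide and treatment cannot be told apart. The untreated arrays, which spread less, entered the spread estimate of this test. miR-146b was well above background on KO replicate 1 alone among the arrays of 24 h.

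Of 39 viral miRNA names on the arrays, which no comparison used, 2 were well above background on KO replicate 2 of 24 h and on no other array. mcmv-miR-M23-1-3p had a summed signal of 38.3 there, where the highest untreated array had 0.565, and mcmv-miR-M23-1-5p had 22.5, where the highest untreated array had 7.44. That array also had the most mouse miRNAs above background, 164. mghv-miR-M1-2 was above background on 11 of 12 arrays.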

How the results depend on the processing

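KO against WT at 24 h gave 5 calls. Numbers pair the arrays, and without the replicate block it gave 4 (1 higher, 3 lower), losing miR-26a (adjusted p 0.0608 in limma's test); with the replicate block within each time it gave 16 (10 higher, 6 lower). All 12 arrays gave 14 with the block within slide and 22 without it. It gave 0 with the 24 h arrays alone, with the block (25 with an unadjusted p under 0.05) or without (17). It gave 0 with normexp background correction (2 unadjusted), normexp without spots of outlying local background, chosen after seeing the data (9), quantile normalization (18), no scaling (13), only miRNAs above background on all 24 h arrays (21) and no filter on dim miRNAs (21). Total gene signal and the deposited table each gave 1, miR-100 with its sign turned and none of the 5; median scaling 3 and the floor times 2 gave 3. The 75th percentile over all mouse miRNAs gave 7 (2 higher, 5 lower) and moved the median of all miRNAs from -0.06 to -0.54. Leaving out 1 array gave 0 to 8. The 24 h minus 12 h difference had 0 calls, except 1 with the deposited table, miR-100.

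The 24 h minus untreated difference had 16 calls, 12 without the replicate block, 0 with normexp (0 unadjusted), 0 with normexp without outlying spots (13), 0 with the 75th percentile over all miRNAs (19), 2 with total gene signal, 1 with the deposited table, 6 with median scaling, 1 with quantile normalization, 9 with no scaling (3 positive, 6 negative), 10 with the floor divided by 2 and 5 with no filter. Leaving out 1 array gave 3 to 33: 3 or 4 without any untreated array, 4 without WT replicate 1 of 24 h, 5 without WT replicate 2, 33 without KO replicate 1 and 29 without KO replicate 2.

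Single differences turned sign as follows, and the cause was not tested. With normexp, miR-34c was -0.13, miR-34b-5p -0.32, miR-106b -0.19, let-7a 0.029, miR-322 -0.27, miR-107 -0.43, miR-24 0.0090, miR-30a -0.13, miR-30c -0.31, miR-30d -0.41, miR-30e -0.56, miR-26b -0.43, miR-146b -0.48, miR-196b -0.26, miR-196a -0.56 and miR-467a* -0.13. With normexp without outlying spots, miR-107 was -0.015, miR-30e -0.061, miR-26b -0.0013, miR-466f-3p 0.035 and miR-466g 0.028. With total gene signal, miR-155 was 0.83, miR-30c -0.59, miR-100 4.004 and miR-877* 2.46. With the deposited table, miR-155 was 0.89, miR-29c 0.32, miR-30c -0.53, miR-125a-5p 0.0402, miR-100 4.06, miR-466g 0.68 and miR-877* 2.52. With the 75th percentile over all mouse miRNAs, miR-23a was -0.17, miR-106b -0.34, let-7e -0.46, miR-107 -0.45, miR-30a -0.38, miR-30c -0.23, miR-30d -0.11, miR-30e -0.49, miR-26b -0.36 and miR-467a* -0.48. With quantile normalization, miR-106b was -0.092, let-7e -0.21 and miR-107 -0.20. With median scaling, miR-30e was -0.014 and miR-467a* -0.0016, and with no scaling miR-125a-5p was 0.047. Leaving out 1 array turned the sign of 18: miR-29a -0.90 to 0.027, miR-19b -1.28 to 0.0195, miR-106b -0.0295 to 0.34, let-7f -0.37 to 0.0202, let-7a -0.40 to 0.19, miR-15b -0.78 to 0.037, miR-15a -0.50 to 0.13, miR-107 -0.065 to 0.16, miR-23b -1.01 to 0.33, miR-30a -0.042 to 0.27, miR-30e -0.22 to 0.23, miR-125a-5p -0.22 to 0.14, miR-669f -0.70 to 0.39, miR-669c -1.38 to 0.89, miR-466f-3p -2.80 to 0.46, miR-466g -2.71 to 0.40, miR-877* -2.003 to 0.996 and miR-467a* -0.81 to 0.84.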

Other observations

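The scanner software's total per miRNA, which the deposited table holds as log2, was not the sum of that miRNA's probe totals in the same file for many of the detected mouse miRNAs. On the arrays of 24 h it was off by over 5% for 45 of 126 and 46 of 148 in WT replicates 1 and 2, and for 45 of 108 and 61 of 188 in KO. For miR-7a on WT replicate 2 the total was 1772 and the probe totals summed to 30.4, a ratio of 58.4, while on WT replicate 1 they were equal at 39.6. At 12 h the miR-7a total was 1142 and 0.1 in KO replicates 1 and 2, and 37.3 and 94.0 in WT. miR-26a was within 5% on all 4 arrays, and miR-210 was on both WT arrays but had ratios of 0.847 and 0.739 on KO replicates 1 and 2. miR-100, the one call with the deposited table, had ratios of 29.8 and 27.3 on the KO arrays.

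miR-1224, singled out after its values were seen, had the second largest mean difference of all miRNAs tested, 2.40 ± 1.24 (SE, n = 2), and was not called (adjusted p 0.35 in limma's test). It stood at -1.88 and -0.50 in WT and at -0.30 and 2.73 in KO, all well above background.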
